A study of Mus musculus with 32 samples.

Results

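The genes described here make cholesterol and fatty acids, control that synthesis or move sterols out of and within the cell. They were taken as a list of 35 gene symbols, and each was read through the probe sets that the array annotation assigned to that symbol alone, over all 32 arrays of the series. A probe set of its own was found for 33 of the 35 genes, out of 19938 genes with one in the whole series. Acat2 had no probe set under its symbol and the probe set of Acsl3 was shared with another gene, so no level is given for either, and both enter the promoter counts only. The 33 genes comprised 6 of the mevalonate pathway, 11 of sterol synthesis from farnesyl diphosphate, 5 SREBP factors and regulators, 8 of fatty acid synthesis and desaturation and 3 of sterol transport. Idi1, Fdft1 and Acaca had 2 probe sets each and are given by the brighter one.

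The cells were Ba/F3, a mouse pro-B cell line that depends on a cytokine for growth, and all 4 lines carried human gp130. The labels give culture with Hyper-IL-6, a fusion of IL-6 with its soluble receptor, for every sample, while the methods of the study also describe selection of transduced lines for growth on their ligands after Hyper-IL-6 was removed, so the cytokine in which each line was kept is not settled. Ba/F3-gp130 carried no further receptor. Ba/F3-IL-12Rβ1-IL-23R, referred to as the natural receptor line, was additionally transduced with both chains of the IL-23 receptor. Ba/F3-SyCyR(IL-23/2A), the paired SyCyR line, carried synthetic cytokine receptors (SyCyRs) instead, in which a GFP nanobody sits on IL-12Rβ1 and an mCherry nanobody on IL-23R, both made from 1 open reading frame joined by a 2A peptide. Ba/F3-SyCyR(IL-23R), the IL-23R SyCyR line, carried a GFP nanobody on IL-23R only. Receptors were delivered with the retroviral plasmid pMOWS, and the lines were selected and kept separately, so that a receptor and the history of its line cannot be told apart. All cells were washed and held without serum for 3 h, and ligand (HmIL-23, GFP-mCherry or 3xGFP) was applied at 100 ng/ml for 1 h. The labels give 8 arrays per line, numbered 13 to 20 in their titles, but not which arrays received ligand. The line differences below are therefore means over all 8 arrays, and odd and even title numbers are compared only as numbers.

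Cholesterol is built from acetyl-CoA through mevalonate to farnesyl diphosphate, then to squalene, lanosterol and cholesterol. When sterols in the endoplasmic reticulum run low, SCAP escorts the SREBP transcription factors to the Golgi, where they are cleaved and released to switch on synthesis genes. INSIG proteins hold SCAP back when sterols are plentiful. SREBP-2 favours cholesterol genes, SREBP-1 favours fatty acid genes, and the efflux pumps ABCA1 and ABCG1 are classical targets of the oxysterol receptor LXR. Proliferating cells draw on this pathway for membranes.

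SREBPs act together with factors that bind CCAAT and GC boxes, and promoters listed by RefSeq (GRCm38.p6) were searched for these letters on both strands in 300 bases, 250 before and 50 after each start. Listed promoters matched 27 of the 35 genes. No promoter was listed for Fdps, Fdft1, Sqle, Scd1, Scd2, Fads1, Stard4 and Abcg1. The CCAAT motif was present in 37.4% of all 32851 promoters and in 14 of the 18 listed for 15 cholesterol synthesis genes (77.8%). GGGCGG, the core of a GC box, was present in 35.7% of all and in 15 of these 18 (83.3%), and both motifs stood together in 12.8% of all and in 13 of these 18 (72.2%). Among the 6 promoters of the fatty acid genes, 3 held the CCAAT motif and 3 held the GC box. TCACNCCAC, a form of the sterol regulatory element, was found in 1.24% of all promoters and, among the 27 genes, in that of Hmgcs1. These counts describe letters in a window and no binding was measured.

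The 150 bases before the start are shown for the 5 cholesterol synthesis genes whose arrays did not overlap between the natural receptor line and Ba/F3-gp130, and for Fasn, which was lower in that comparison. Capitals mark these motifs on either strand, so that ATTGG is CCAAT read on the opposite strand. The first of each pair of coordinates is the lower one, and sequences run 5′ to 3′ along the strand of the gene. Idi1 lies on the plus strand at chr13:8885456-8885605 and Lss on the plus strand at chr10:76531455-76531604. Cyp51 (chr5:4104698-4104847), Msmo1 (chr8:64733579-64733728), Hsd17b7 (chr1:169969206-169969355) and Fasn (chr11:120824548-120824697) lie on the minus strand.
Idi1: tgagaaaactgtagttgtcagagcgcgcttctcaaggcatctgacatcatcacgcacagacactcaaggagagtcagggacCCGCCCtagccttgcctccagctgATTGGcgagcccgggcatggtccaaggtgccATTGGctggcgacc
Lss: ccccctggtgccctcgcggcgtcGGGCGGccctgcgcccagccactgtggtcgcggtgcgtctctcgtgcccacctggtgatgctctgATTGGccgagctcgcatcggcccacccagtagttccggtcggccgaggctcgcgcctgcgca
Cyp51: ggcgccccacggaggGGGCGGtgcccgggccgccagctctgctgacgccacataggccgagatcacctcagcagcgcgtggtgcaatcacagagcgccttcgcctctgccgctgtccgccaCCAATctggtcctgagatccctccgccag
Msmo1: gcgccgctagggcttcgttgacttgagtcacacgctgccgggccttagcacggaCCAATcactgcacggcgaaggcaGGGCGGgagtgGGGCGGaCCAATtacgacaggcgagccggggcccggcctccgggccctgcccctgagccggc
Hsd17b7: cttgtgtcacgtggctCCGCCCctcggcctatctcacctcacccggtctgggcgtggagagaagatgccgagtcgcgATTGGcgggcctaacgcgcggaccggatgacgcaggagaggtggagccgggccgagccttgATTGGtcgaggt
Fasn: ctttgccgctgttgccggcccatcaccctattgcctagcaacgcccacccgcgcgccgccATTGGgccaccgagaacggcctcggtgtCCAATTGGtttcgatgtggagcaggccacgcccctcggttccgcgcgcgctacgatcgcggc
All 5 cholesterol synthesis genes shown held both motifs in these 150 bases. Fasn held 3 matches to CCAAT over both strands, 2 of which overlap, and none to GGGCGG. In the longer window counted above, Hmgcs1, Mvd, Tm7sf2, Ebp and Acly also held both motifs. They were counted as neither higher nor lower in the natural receptor line than in Ba/F3-gp130. Fads2, higher there without overlap, held the GC box but no CCAAT, and Acaca, lower there, held neither. Whether these motifs go with the direction of a difference was not tested.

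Values are log2 RMA values, the gene-level signals of Affymetrix Mouse Gene ST 1.0 arrays after the normalization of the authors, so that a difference of 1 corresponds to a factor of 2. Of the 33 genes, 32 exceeded 7.04 on the log2 scale, the median over the means of all probe sets, which served as the floor. Scd1, a stearoyl-CoA desaturase, was the exception at 6.07 (median of the Ba/F3-gp130 arrays), while the probe set of its relative Scd2 had a median of 13.17. The median value per array over all probe sets ranged from 6.94 to 7.18, and arrays of a line correlated at 0.988 or more. As a check of identity, 12 of 13 pro-B cell markers were measured and 4 of them (Cd79a, Cd79b, Igll1 and Vpreb2) lay above the floor in every line. The other measured ones, among them Ebf1 and Pax5, lay under it. Of the 5 mast cell and basophil markers, Fcer1a, Gata2 and Prss34 lay above it and Cpa3 and Mcpt8 under it in every line. The erythroid markers Gata1, Klf1 and Epor lay above it too. Of the 7 granulocyte and macrophage markers, Mpo lay above it and Csf1r and Adgre1 under it in every line. Ctsg, Elane, Lyz2 and Itgam lay above it in some lines only, and all of them under it in the natural receptor line. Of the T cell markers Cd8a lay above it, and Cd3e, Cd3g and Cd4 lay under it. The summed level of the 7 granulocyte and macrophage markers ran from 8.95 to 9.30 on the log2 scale in the natural receptor line and from 9.64 to 10.87 over the other lines, and that of the 5 mast cell and basophil markers from 12.20 to 12.73 against 12.67 to 13.24. The part of these differences in the results below was not tested. In RNA from whole cultures, fewer cells that make a transcript and less transcript per cell cannot be told apart.

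The lines were compared with limma, with Benjamini-Hochberg adjustment over 23410 probe sets with a gene symbol, and a gene was counted as higher or lower at an adjusted p under 0.05. A stricter count also required 1.5-fold. The methods of the study speak of independent biological replicates, but no label ties the 8 arrays of a line to them. Arrays with neighbouring title numbers (13 and 14, 15 and 16, 17 and 18, 19 and 20) deviated together, with median correlations over probe sets of 0.428, 0.302, 0.349 and 0.370 in the order in which the lines were introduced, against -0.15, -0.09, -0.16 and -0.10 between other odd and even arrays. The deviations were taken from the means of the odd and of the even arrays of a line. Positive values between neighbours therefore force negative ones between the others, which are no separate evidence. Arrays that share a culture would make the p-values over 8 arrays too small, so the lines were also compared by the means of neighbouring arrays, 4 values per line. This comparison was added after the data had been seen, and 51 of 83 called differences passed in it. The arrays numbered 17 and 18 were singled out after their values had been seen, so calls gained or lost without them are a description. Shares of all probe sets given for line differences belong to the comparison over 8 arrays. Counts of line differences from other fits, from subsets of arrays or at an unadjusted p have no share beside them and are not set against one.

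Cells of the natural receptor line had more transcript of most cholesterol synthesis genes than Ba/F3-gp130 cells and much less Abcg1. Of the 33 genes, 16 were higher and 4 were lower, against 7.48% and 10.4% of all probe sets tested. The lower count lies near the share of all probe sets. The 1.5-fold limit was passed by 1 higher gene, Idi1, and 1 lower gene, Abcg1, against 1.64% and 1.27% of all probe sets. Over the 33 genes the log2 difference had a median of 0.18, and over all probe sets of 0.01. The arrays of both lines did not overlap for 6 higher genes and 1 lower gene, where 2.68% and 3.75% of all probe sets showed this. With the means of neighbouring arrays, for which no share of all probe sets is given, 12 genes were higher and 2, Abcg1 and Scd2, were lower.

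**Figure D1:**
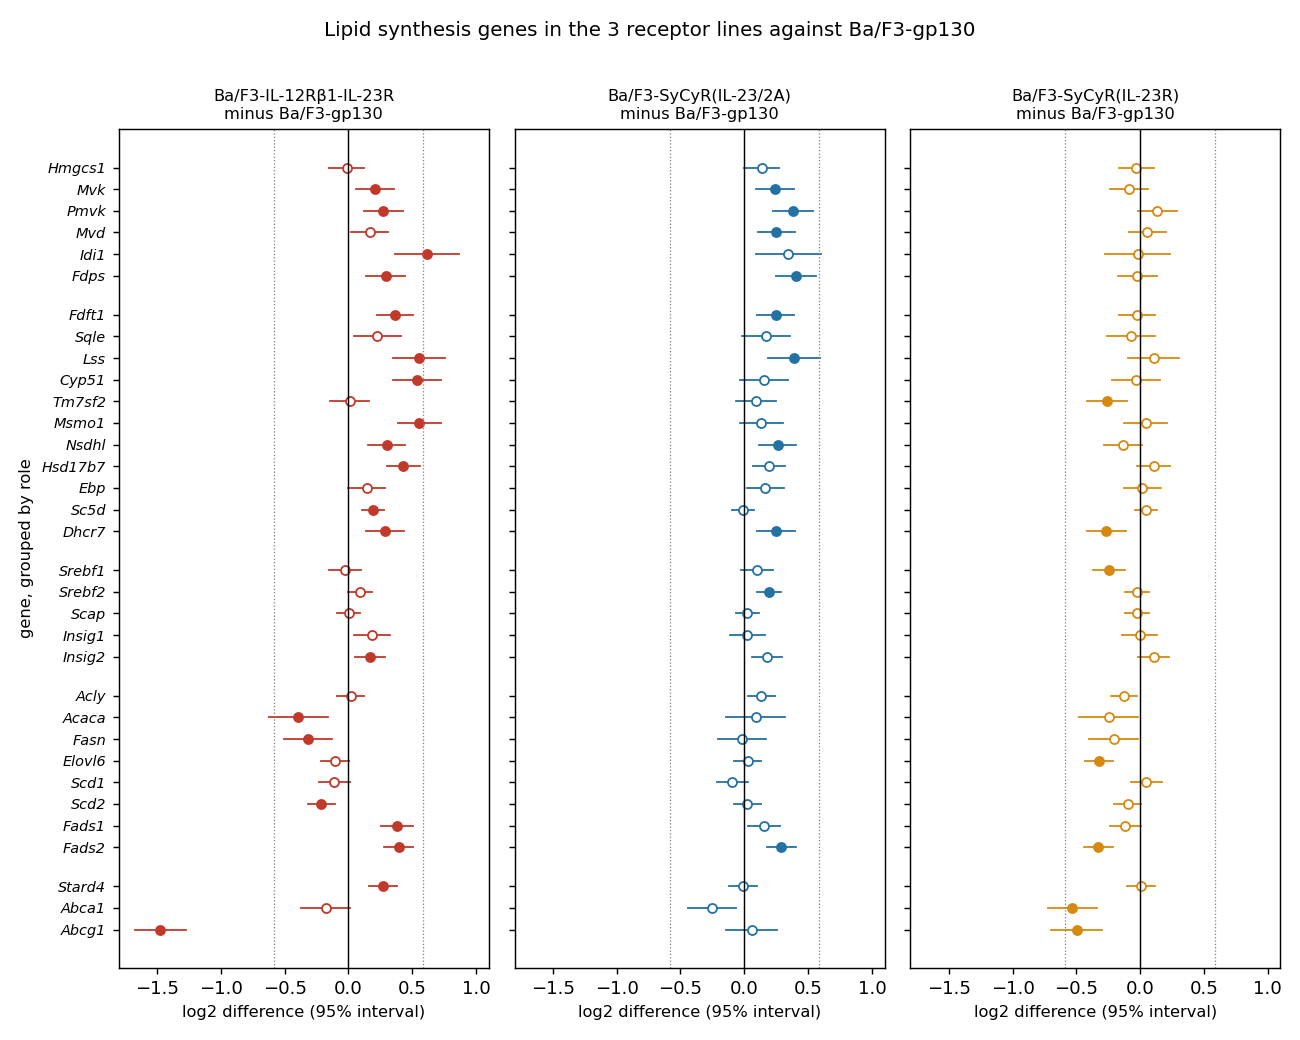
Log2 difference of each of the 33 genes (vertical axis, grouped from top to bottom into mevalonate pathway, sterol synthesis, SREBP factors and regulators, fatty acid synthesis and sterol transport) between a receptor line and Ba/F3-gp130, with the 95% interval from limma over 8 arrays per line. Filled points have an adjusted p under 0.05 and dotted lines mark 1.5-fold; 16, 10 and 0 genes were higher and 4, 0 and 7 lower in the panels from left to right.

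Within the mevalonate pathway, Idi1, which isomerizes isopentenyl diphosphate, read from 9.81 to 10.57 in Ba/F3-gp130 with a median of 10.05. In the natural receptor line it read from 10.58 to 10.84 with a median of 10.78, so that the lowest array of one line lay just above the highest of the other. Its log2 difference was 0.62 (SE 0.13, 1.53-fold higher, limma adjusted p = 0.00032), and its other probe set gave 0.61. The difference fell under 1.5-fold, with an adjusted p of at most 0.0029 in limma, when the arrays numbered 14, 15 or 16 were left out of every line, leaving 0 higher genes past that limit, whereas 3 passed it without number 17 or 18 and 2 without number 19. The kinases Mvk (log2 difference 0.21) and Pmvk (0.27) and farnesyl diphosphate synthase, Fdps (0.29), were also higher. With the means of neighbouring arrays Mvk, Pmvk and Fdps did not pass (limma adjusted p = 0.19, 0.092 and 0.062), while Idi1 did (0.020). The decarboxylase Mvd (0.17) and the HMG-CoA synthase Hmgcs1 (-0.01) did not pass the test.

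All 11 genes of sterol synthesis had positive differences, and 8 of them passed the test. Msmo1, a sterol C4-methyl oxidase, read from 11.56 to 12.04 in Ba/F3-gp130 (median 11.76) and from 12.22 to 12.53 in the natural receptor line (median 12.34), a log2 difference of 0.56. Lss, which closes squalene epoxide into lanosterol, read from 8.65 to 9.17 (median 8.85) against 9.19 to 9.62 (median 9.42), a difference of 0.55. Cyp51, the lanosterol demethylase, read from 10.22 to 10.62 (median 10.34) against 10.80 to 11.04 (median 10.95), a difference of 0.54. None of these genes had overlapping arrays between the lines. Hsd17b7, a sterol ketoreductase, was likewise separated, with 9.68 to 9.96 (median 9.87) against 10.10 to 10.50 (median 10.25) and a difference of 0.43. The squalene synthase Fdft1 (0.37, and 0.46 for its other probe set), Nsdhl (0.30), Dhcr7 (0.29) and Sc5d (0.19) completed the 8, and Sqle (0.23), Ebp (0.14) and Tm7sf2 (0.01) did not pass.

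The 8 fatty acid genes moved in both directions. The desaturases Fads1 and Fads2, which introduce double bonds into polyunsaturated fatty acids, were higher by 0.38 and 0.39 on the log2 scale. Fads2 read from 11.59 to 11.73 in Ba/F3-gp130 (median 11.67) and from 11.88 to 12.24 in the natural receptor line (median 12.07), without overlap. Acetyl-CoA carboxylase, Acaca, the committing enzyme of fatty acid synthesis, fell by 0.39 and fatty acid synthase, Fasn, fell by 0.32, while Scd2 fell by 0.21. For Fasn the ranges overlapped, with 10.18 to 10.57 in Ba/F3-gp130 (median 10.41) and 9.93 to 10.26 in the natural receptor line (median 10.04). The other probe set of Acaca gave -0.37. Without the arrays numbered 17 and 18, Acaca (-0.34, limma adjusted p = 0.075), Fasn (-0.25, limma adjusted p = 0.16) and Scd2 (-0.14, limma adjusted p = 0.063) no longer passed, leaving Abcg1 as the lower gene. Acly, Elovl6 and Scd1 did not pass the test, with differences of 0.02, -0.11 and -0.11.

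Abcg1, which exports sterols from the cell, showed the widest separation of the list. Its log2 values ran from 8.70 to 9.36 in Ba/F3-gp130 (median 9.05) and from 7.34 to 7.78 in the natural receptor line (median 7.57), with a gap of almost 1 log2 unit between the lines. The log2 difference was -1.47 (SE 0.10, 2.78-fold lower, limma adjusted p = 4.6e-14). Abca1, the other pump, did not pass the test, at -0.18, and Stard4, an intracellular sterol carrier, was higher by 0.27.

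**Figure D2:**
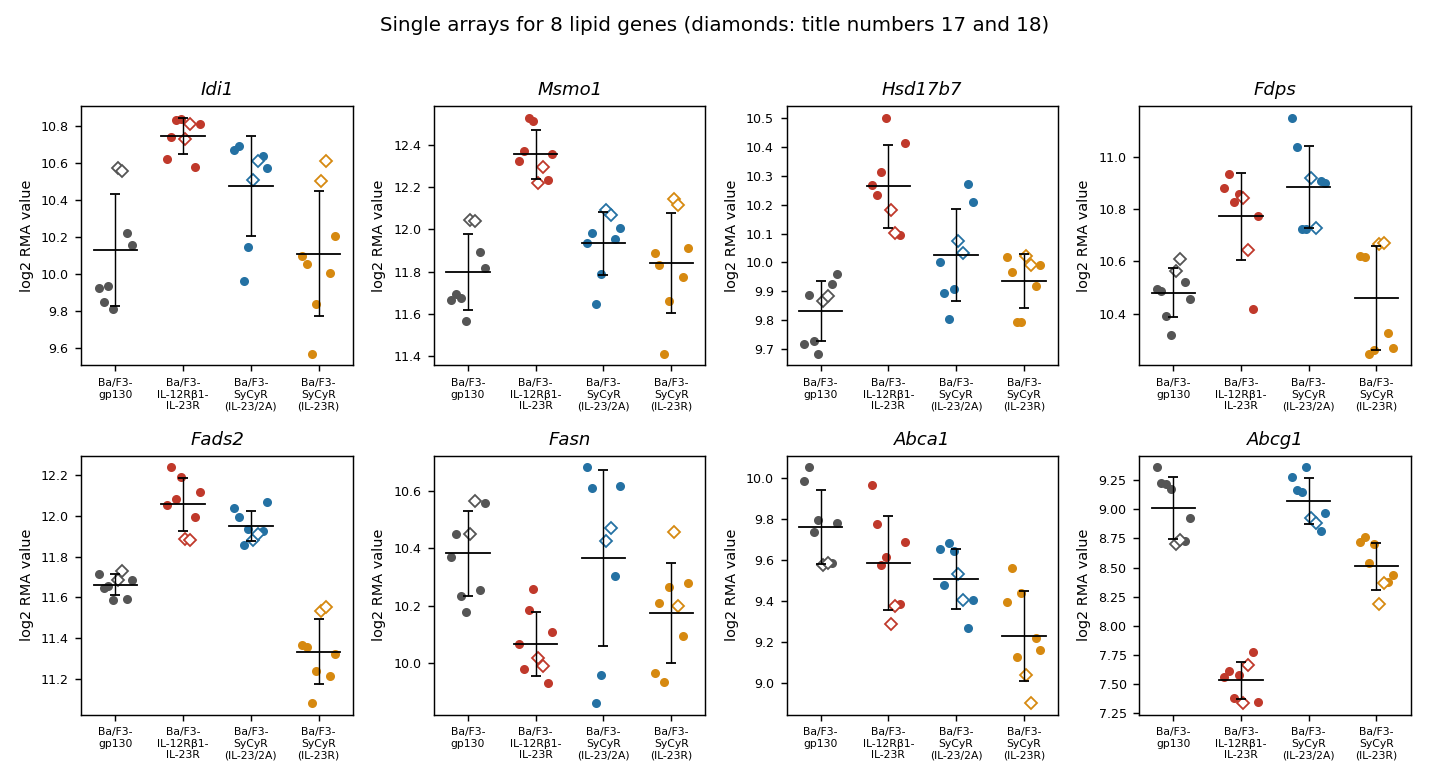
Log2 RMA value of every array for 8 of the genes, with the 8 arrays of each line drawn in order of title number, diamonds for numbers 17 and 18, and black bars for the mean and SD. Abcg1 lies between 7.34 and 7.78 in the natural receptor line and above 8 in the other lines, and Fads2 is lowest in the IL-23R SyCyR line.

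Cells of the paired SyCyR line had more transcript of part of the mevalonate and sterol genes than Ba/F3-gp130 cells, by at most 1.32-fold. Of the 33 genes 10 were higher and 0 lower, against 2.35% and 3.88% of all probe sets, and none reached 1.5-fold, where 0.363% of all probe sets were higher and 0.196% lower. At an unadjusted p under 0.05, 16 genes were higher and 1 was lower. Over the 33 genes the log2 difference had a median of 0.16, and over all probe sets of 0.01. The 10 genes were Mvk, Pmvk, Mvd and Fdps of the mevalonate pathway, Fdft1, Lss, Nsdhl and Dhcr7 of sterol synthesis, the transcription factor gene Srebf2, and Fads2. The number of higher genes was 4 without the arrays numbered 13 or 14 and 5 without those numbered 16 or 20. With the means of neighbouring arrays 3 remained higher, Fdps (limma adjusted p = 0.029), Fads2 (0.035) and Pmvk (0.047), whereas with the title number as a block 16 were higher and 1 lower.

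Fdps read from 10.32 to 10.61 in Ba/F3-gp130 (median 10.49) and from 10.72 to 11.15 in the paired SyCyR line (median 10.90), without overlap, and differed by 0.40 on the log2 scale (SE 0.08, 1.32-fold higher, limma adjusted p = 0.00071). Pmvk, the phosphomevalonate kinase, read from 9.47 to 9.74 (median 9.65) against 9.91 to 10.18 (median 9.99) and differed by 0.38 (SE 0.08, 1.30-fold higher, limma adjusted p = 0.0013). Fads2 read from 11.59 to 11.73 against 11.86 to 12.07 (median 11.93) and differed by 0.29 (SE 0.06, 1.22-fold higher, limma adjusted p = 0.0011). These 3 genes were the ones without overlap between the arrays of both lines, against 0.923% of all probe sets. Lss overlapped, with 8.65 to 9.17 against 8.81 to 9.54, and differed by 0.39 (SE 0.10, 1.31-fold higher, limma adjusted p = 0.013). Nsdhl, a sterol dehydrogenase, differed by 0.26 (SE 0.07, 1.20-fold higher, limma adjusted p = 0.025) and Mvd by 0.25 (SE 0.07, 1.19-fold higher, limma adjusted p = 0.029). Mvd no longer passed without the arrays numbered 17 and 18 (0.27, limma adjusted p = 0.080). Idi1 did not pass at 0.35, and without the arrays numbered 17 and 18 it did, at 0.46 (limma adjusted p = 0.017). For Idi1 these arrays lay above the others in Ba/F3-gp130 (10.56 and 10.57 against 9.81 to 10.22) and overlapped them in the paired SyCyR line. Leaving them out therefore widens this difference by construction. Abcg1 (0.06) and Fasn (-0.02) had differences near 0 in this line.

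In cells of the IL-23R SyCyR line, both efflux pumps and part of the fatty acid genes had less transcript than in Ba/F3-gp130 cells. No cholesterol synthesis gene passed the test as higher. Against Ba/F3-gp130, 0 of the 33 genes were higher and 7 were lower, where 6.34% and 8.40% of all probe sets were, and none reached 1.5-fold, where 0.867% of all probe sets were higher and 0.649% lower. Among the 17 genes of the mevalonate and sterol steps, the median log2 difference was -0.02 and 2 were lower. At an unadjusted p under 0.05, 0 genes were higher and 10 were lower. With the means of neighbouring arrays 4 remained lower, Abca1, Abcg1, Fads2 and Elovl6, and Dhcr7, Tm7sf2 and Srebf1 did not pass. The arrays did not overlap for 3 lower genes, Abca1, Fads2 and Srebf1, against 2.77% of all probe sets.

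Both efflux pumps were among the lower genes. Abca1 read from 9.58 to 10.05 in Ba/F3-gp130 (median 9.76) and from 8.90 to 9.56 in the IL-23R SyCyR line (median 9.19), a log2 difference of -0.53 (SE 0.09, 1.45-fold lower, limma adjusted p = 8.2e-05). Abcg1 read from 8.19 to 8.76 in the latter (median 8.49), reaching just over the lowest Ba/F3-gp130 array at 8.70, and differed by -0.50 (SE 0.10, 1.41-fold lower, limma adjusted p = 0.00041). Of the fatty acid genes, Fads2 read from 11.08 to 11.55 (median 11.34) against 11.59 to 11.73 and differed by -0.33 (SE 0.06, 1.26-fold lower, limma adjusted p = 6.0e-05). Elovl6, an elongase of saturated fatty acids, differed by -0.32 (SE 0.05, 1.25-fold lower, limma adjusted p = 3.6e-05), with 11.13 to 11.61 against 11.54 to 11.71. Of the late sterol reductases, Dhcr7 differed by -0.26 (SE 0.07, 1.20-fold lower, limma adjusted p = 0.012) and Tm7sf2 by -0.26 (SE 0.08, 1.20-fold lower, limma adjusted p = 0.017). Srebf1, the gene of SREBP-1, was the remaining lower gene, at -0.24, with 9.33 to 9.65 against 9.66 to 9.80.

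Between the receptor lines, the same arrays enter the comparisons again, so the following values are not independent of those above. The IL-23R SyCyR line stood below the natural receptor line in 21 of the 33 genes and above it in 1, where 10.5% and 12.0% of all probe sets were lower and higher. With the means of neighbouring arrays Sqle, Srebf1, Tm7sf2, Sc5d, Abca1, Insig1 and Acly no longer passed, and the other calls did. All 17 genes of the mevalonate and sterol steps had negative differences, and 13 were lower. The 1.5-fold limit was passed by Fads2, Idi1 and Abcg1, where 1.55% of all probe sets were lower and 1.57% higher by that much. Fads2 had ranges of 11.08 to 11.55 and 11.88 to 12.24 and differed by -0.72 (SE 0.06, 1.65-fold lower, limma adjusted p = 2.1e-12). Idi1 had ranges of 9.57 to 10.61 (median 10.08) and 10.58 to 10.84, which overlapped slightly, and differed by -0.63 (SE 0.13, 1.55-fold lower, limma adjusted p = 0.00017), with -0.60 for its other probe set. Abcg1 went the other way, with 8.19 to 8.76 against 7.34 to 7.78 and a difference of 0.98 (SE 0.10, 1.97-fold higher, limma adjusted p = 1.2e-09). No overlap was seen for 6 lower genes (Fads1, Fads2, Hsd17b7, Nsdhl, Msmo1 and Cyp51) and for Abcg1, against 2.61% and 3.48% of all probe sets. Lower genes past 1.5-fold numbered 5 without the arrays numbered 17 and 18 (Fads2, Idi1, Cyp51, Msmo1 and Dhcr7), 4 without number 18 alone, and 1 without number 15 or 16. For these 5 genes the arrays numbered 17 and 18 lay above the others in the IL-23R SyCyR line and not in the natural receptor line. They were singled out after their values had been seen, so leaving them out widens these differences by construction. Acly, ATP citrate lyase (-0.14), no longer passed without 17 and 18 (-0.18, limma adjusted p = 0.051).

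The IL-23R SyCyR line also stood below the paired SyCyR line, in 14 genes with 0 above, where 3.58% and 4.17% of all probe sets were lower and higher. The title numbers paired the arrays of these lines, and with the number as a block 22 genes were lower, adding Sqle, Ebp, Abca1, Acaca, Lss, Mvd, Idi1 and Hmgcs1. With the means of neighbouring arrays 9 were lower, and Srebf2 was not among them. Fads2 was the gene past 1.5-fold, where 0.376% of all probe sets were lower and 0.671% higher, with 11.08 to 11.55 against 11.86 to 12.07 and a difference of -0.62 (SE 0.06, 1.54-fold lower, limma adjusted p = 5.3e-10). Without the arrays numbered 17 and 18, Dhcr7 passed that limit too, at -0.61. These arrays lay above the others for this gene in the IL-23R SyCyR line, not in the paired one, which widens the difference. The arrays did not overlap for Fads2, Fdps, Abcg1, Srebf1 and Srebf2, all lower, against 0.931% of all probe sets. The 2 genes of the SREBP factors were thus both lower here, Srebf1 by a log2 difference of -0.34 and Srebf2 by -0.21, whereas Scap, Insig1 and Insig2 did not pass the test.

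The paired SyCyR line and the natural receptor line, which both hold the IL-12Rβ1 and IL-23R signalling parts, differed in 10 of the genes. Relative to the natural receptor line, 4 genes were higher and 6 lower, against 9.55% and 8.88% of all probe sets, and with the title number as a block 7 were higher. Abcg1 passed the 1.5-fold limit, which 1.17% of all probe sets did in that direction and 1.46% in the other, with 8.81 to 9.36 (median 9.06) against 7.34 to 7.78 and a difference of 1.53 (SE 0.10, 2.89-fold higher, limma adjusted p = 1.7e-14). Acaca (0.48), Fasn (0.30) and Scd2 (0.24) were the other higher genes, and Fasn no longer passed without the arrays numbered 17 and 18 (0.25, limma adjusted p = 0.16). The lower genes were Msmo1 (-0.42), Cyp51 (-0.38), Stard4 (-0.28), Hsd17b7 (-0.24), Fads1 (-0.22) and Sc5d (-0.20), of which Msmo1, Stard4 and Sc5d passed with the means of neighbouring arrays. No overlap was seen for Msmo1, Cyp51 and Abcg1, where 2.53% of all probe sets were lower and 3.19% higher without overlap.

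Of the SREBP factors, Srebf1 was lower in the IL-23R SyCyR line than in Ba/F3-gp130, the natural receptor line and the paired SyCyR line (log2 differences -0.24, -0.21 and -0.34). Srebf2 was higher in the paired SyCyR line than in Ba/F3-gp130 (0.19) and lower in the IL-23R SyCyR line than in the paired SyCyR line (-0.21). With the means of neighbouring arrays, of these only the -0.34 of Srebf1 passed. Over the 6 comparisons of lines, differences of Srebf1, Srebf2, Scap, Insig1 and Insig2 lay between -0.34 and 0.19 on the log2 scale. Insig2 was higher in the natural receptor line than in Ba/F3-gp130 by 0.17, a call that was lost without the arrays numbered 17 and 18 (0.13, limma adjusted p = 0.28). Insig1 was lower in the IL-23R SyCyR line than in the natural receptor line by 0.19, with ranges of 11.24 to 11.53 and 11.30 to 11.90. Scap passed the test in none of the 6 comparisons.

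A further 22 genes of the pathway were listed for reference, and 16 had a probe set of their own. In the natural receptor line, 4 of the 16 had more transcript and 2 had less than in Ba/F3-gp130, in the paired SyCyR line 1 and 0, and in the IL-23R SyCyR line 2 and 1. Of all probe sets, 7.48% and 10.4%, 2.35% and 3.88%, and 6.34% and 8.40% were higher and lower in these comparisons, so that several of the counts lie near that share. In the natural receptor line the higher genes were Acss2 (log2 difference 0.22), the elongase Elovl1 (0.12), the phospholipid acyltransferase Lpcat3 (0.33) and Mid1ip1 (0.31), a regulator of acetyl-CoA carboxylase, and the lower ones were Mbtps1 (-0.25), the site-1 protease that cleaves SREBPs, and the malic enzyme Me1 (-0.24). Elovl1 (0.13) was the gene higher in the paired SyCyR line. In the IL-23R SyCyR line Tmem97, a sterol-responsive membrane protein, and Mid1ip1 were higher. Tmem97 read from 11.64 to 11.87 there (median 11.76) and from 11.22 to 11.38 in Ba/F3-gp130 (median 11.30), without overlap. Its log2 difference was 0.46 (SE 0.05, 1.38-fold higher, limma adjusted p = 9.5e-08), and its other probe set gave 0.44. Mid1ip1 differed by 0.25 without overlap of the arrays, but its other probe set gave -0.03, and 0.02 in the natural receptor line. Acss2, which makes acetyl-CoA from acetate, was the gene of these that passed 1.5-fold, and it did so in each comparison of the IL-23R SyCyR line with another line. Its values ran from 9.71 to 10.10 in the IL-23R SyCyR line, from 10.43 to 10.66 in Ba/F3-gp130, from 10.56 to 10.98 in the natural receptor line and from 10.48 to 10.78 in the paired SyCyR line. Every array of the IL-23R SyCyR line was thus below every array of the other lines, and the mean log2 differences from them were -0.64, -0.86 and -0.72 in that order.

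Within a line, several cholesterol synthesis genes differed between title numbers. In Ba/F3-gp130, the arrays numbered 17 and 18 lay above the 6 others in 10 of the 17 mevalonate and sterol genes, and in the IL-23R SyCyR line also in 10. In the paired SyCyR line this held for 1 gene, with 1 gene below, and in the natural receptor line for 0. For Idi1, these arrays read 10.56 and 10.57 in Ba/F3-gp130, where the others ran from 9.81 to 10.22, and 10.50 and 10.61 in the IL-23R SyCyR line, where the others ran from 9.57 to 10.21. In the natural receptor line they read 10.73 and 10.81, within the range of the others from 10.58 to 10.84. The efflux pumps lay on the other side in the IL-23R SyCyR line, where Abca1 read 8.90 and 9.04 against 9.13 to 9.56 and Abcg1 8.19 and 8.37 against 8.37 to 8.76. Fads1 was below the other arrays at numbers 17 and 18 in every line but the IL-23R SyCyR line. These arrays were singled out after their values had been seen, and this is a description with no test.

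**Figure D3:**
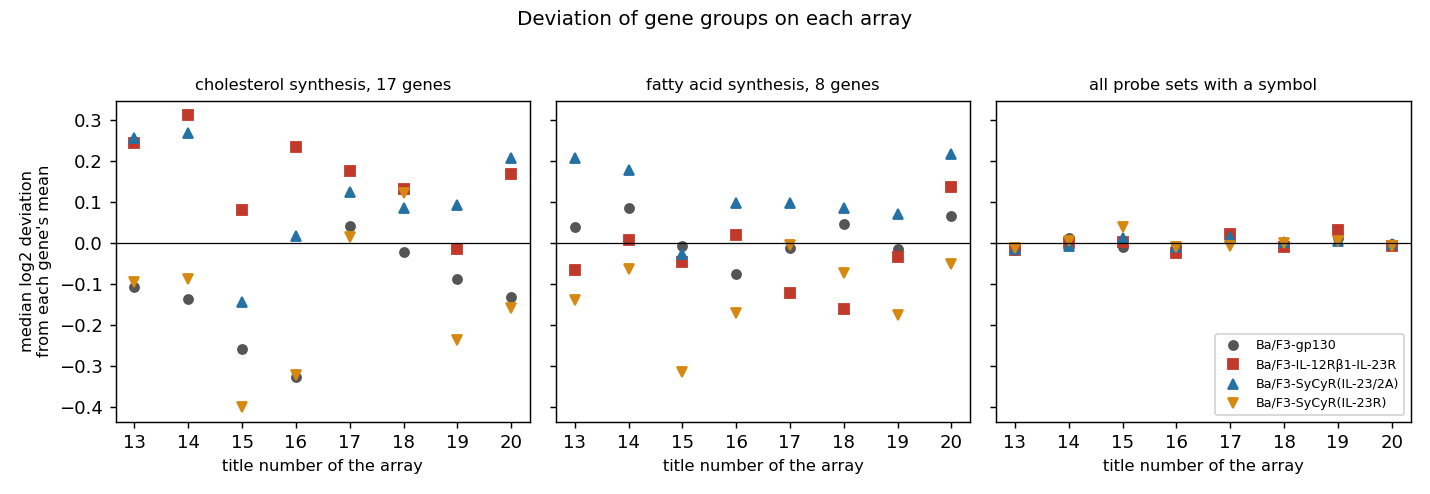
Median log2 deviation from each gene's mean over all 32 arrays (vertical axis) against the title number of the array, for the 17 mevalonate and sterol genes, the 8 fatty acid genes and all probe sets with a symbol; each point is 1 array, and colours and marker shapes give the line. The cholesterol synthesis genes spread from -0.40 to 0.31 while the median of all probe sets stays between -0.03 and 0.04.

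In a fit of line and title number, 18 of the 33 genes differed between numbers (F test in limma, adjusted p under 0.05), against 34.0% of all probe sets. When the Ba/F3-gp130 arrays were left out 10 did, and the share of all probe sets in that fit is not given. The 18 were 4 of 6 mevalonate genes, 6 of 11 sterol genes, 4 of 5 SREBP genes, 2 of 8 fatty acid genes and 2 of 3 transport genes. Ebp, the sterol isomerase, had an adjusted p of 0.00034, Acaca of 0.00052 and Abca1 of 0.00068 in this limma test. The labels do not say what the numbers stand for.

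Odd and even title numbers were compared in 2 ways, with the arrays of a line taken as unpaired and with neighbouring numbers as pairs. With the arrays unpaired, in Ba/F3-gp130, the natural receptor line, the paired SyCyR line, the IL-23R SyCyR line and the mean over the 3 receptor lines, limma called 0 of 33. Of all probe sets, 0.00% were higher on odd-numbered arrays in Ba/F3-gp130, 1.96% in the natural receptor line, 0.846% in the paired SyCyR line, 0.171% in the IL-23R SyCyR line and 2.58% in the mean, and 0.00%, 1.16%, 0.107%, 0.00427% and 2.06% were lower. At an unadjusted p under 0.05, 1 gene was lower in the natural receptor line and 2 in the mean of the receptor lines, with 0 in the other 3 comparisons. The 95% intervals of all 33 genes in all 4 lines lay between -0.51 and 0.45 on the log2 scale, inside 1.5-fold in either direction.

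With neighbouring numbers as pairs, a fit added after the data had been seen, the median SE of the differences within a line was 0.06 where it had been 0.10, and odd-numbered arrays were lower in several genes. In the mean of the receptor lines 6 of the 33 genes were lower and 0 higher, against 8.45% and 5.42% of all probe sets. They were Dhcr7 (log2 difference -0.14, limma adjusted p = 0.0098), Sqle (-0.11, 0.018), Scd2 (-0.11, 0.021), Nsdhl (-0.10, 0.024), Lss (-0.14, 0.028) and Idi1 (-0.10, 0.044), 5 of them genes of cholesterol synthesis. In the natural receptor line Scd2 (-0.18, limma adjusted p = 0.040) and Dhcr7 (-0.19, limma adjusted p = 0.046) were lower, against 4.77% of all probe sets lower and 3.62% higher. In Ba/F3-gp130, the paired SyCyR line and the IL-23R SyCyR line 0 genes passed, with 0, 0 and 6 at an unadjusted p under 0.05, all lower, where 0.00%, 1.23% and 0.278% of all probe sets were higher and 0.00%, 0.380% and 0.0128% lower. The paired 95% intervals in the 4 lines lay between -0.33 and 0.25 on the log2 scale. Same-numbered arrays of the receptor lines deviate together, so the pairs behind their mean are not independent of each other.

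**Figure D4:**
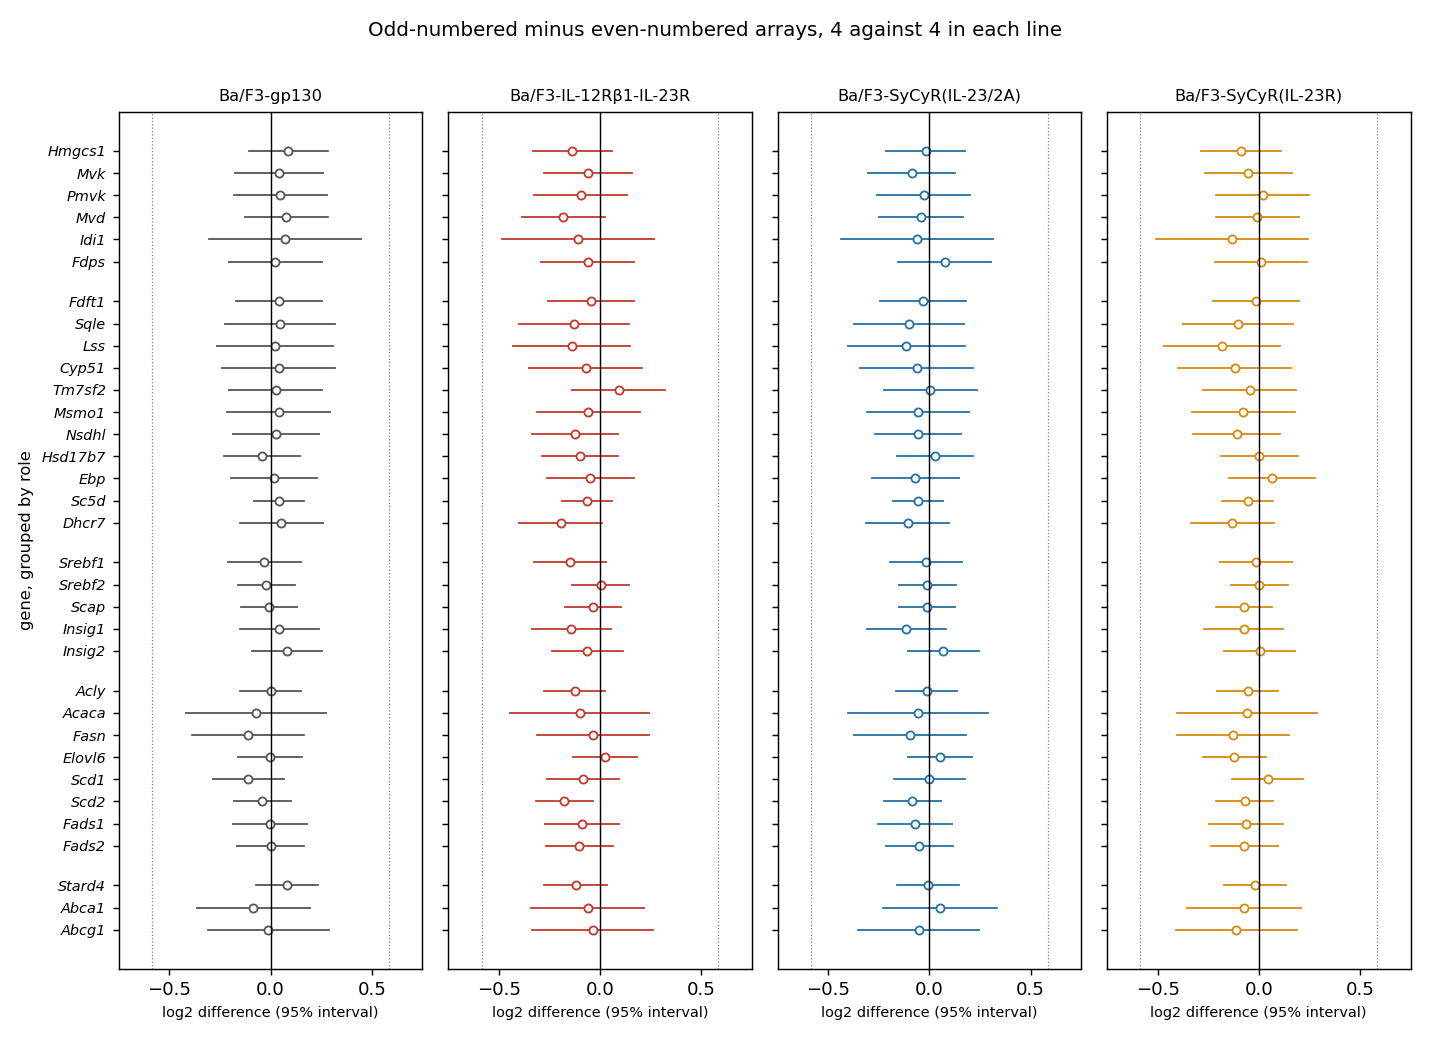
Log2 difference of the odd-numbered from the even-numbered arrays for each of the 33 genes (vertical axis, grouped by role) in the 4 lines, with the 95% interval from limma over 4 odd and 4 even arrays taken as unpaired; dotted lines mark 1.5-fold. Every interval stays inside the dotted lines, and in the receptor lines most points lie left of 0.

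Most of these small differences had the same sign in the receptor lines. Odd-numbered arrays were lower in 30 of 33 genes in the natural receptor line, in 27 in the paired SyCyR line and in 26 in the IL-23R SyCyR line, with median log2 differences of -0.09, -0.05 and -0.06. In Ba/F3-gp130 they were lower in 12 of 33, with a median of 0.02, and the medians over all probe sets were 0.00 in each of the 4 lines. The genes share arrays, so these signs are not independent of each other. For Scd2, the difference in the mean of the receptor lines was -0.11, with a 95% interval from -0.19 to -0.03 (limma adjusted p = 0.10), and for Dhcr7 it was -0.14, from -0.26 to -0.03 (limma adjusted p = 0.14). Without the arrays numbered 13 both passed the test in limma (Scd2 adjusted p = 0.027 and Dhcr7 adjusted p = 0.037), and without those numbered 16 Dhcr7 did (adjusted p = 0.045). The difference of odd from even arrays itself was compared between lines, and limma called 0 of the 33 genes in each of the 6 comparisons, and 0 had an unadjusted p under 0.05. With neighbouring numbers as pairs limma again called 0, with 7 genes at an unadjusted p under 0.05 for the natural receptor line against Ba/F3-gp130, 5 for the IL-23R SyCyR line against Ba/F3-gp130, 1 between the SyCyR lines and 0 in the other 3 comparisons. The unpaired 95% intervals of these differences reached from -0.73 to 0.58 on the log2 scale, wider than 1.5-fold. Those with neighbouring numbers as pairs reached from -0.46 to 0.38, inside 1.5-fold in either direction. With the arrays unpaired, 0.927%, 0.380% and 0.0982% of all probe sets were called higher relative to Ba/F3-gp130 in the natural, paired SyCyR and IL-23R SyCyR lines and 0.278%, 0.0214% and 0.00% lower. Between the receptor lines, again unpaired, 0.00854% were higher and 0.103% lower for the paired SyCyR against the natural line, 0.0427% and 0.555% for the IL-23R SyCyR against the natural line, and 0.00% and 0.0812% between the SyCyR lines. With neighbouring numbers as pairs, 1.52%, 0.735% and 0.154% were called higher relative to Ba/F3-gp130, in the same order, and 1.06%, 0.0940% and 0.00427% lower. Between the receptor lines these paired shares were 0.0384% and 0.295%, 0.201% and 1.05%, and 0.00854% and 0.196%.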

How the data were processed

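The authors hybridised total RNA to Affymetrix Mouse Gene ST 1.0 arrays and deposited log2 RMA values, computed per gene with sketch-quantile normalization in Expression Console, with its version not given in the sources used. The values were used as deposited. Of 35556 probe sets, 21789 carried 1 gene symbol, 1621 several and 12146 none in the platform annotation. Lines and odd or even title numbers were compared with limma 3.58.1 (R 4.3.3) over the 23410 probe sets with a symbol, with Benjamini-Hochberg adjustment for each comparison. Genes were called at an adjusted p under 0.05, with or without 1.5-fold, the fold limit in the methods of the study. The scripts were tested on simulated data. All 33 genes could be named, and full statistics were given to up to 6 with the largest called difference in each comparison. The genes, lists and tests were chosen with earlier results of these data known. Arrays with the same title number were correlated in their deviations from the line means at 0.374, 0.220 and 0.193 or more between pairs of receptor lines, and numbers were taken to pair these 3 lines. With Ba/F3-gp130 the lowest correlation was -0.07, and no pairing was assumed. Within odd or even numbers, the lowest were 0.115, 0.0616 and 0.0721 between receptor lines and 0.112, 0.0882 and 0.0719 with Ba/F3-gp130, so that on this measure Ba/F3-gp130 was paired no less than the others, and its blocked values are given too. RNA came from 4 independent biological replicates per the methods, which no label assigns to arrays. Fits with neighbouring numbers as pairs were added after the data had been seen. The number of arrays limits the precision.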

Additional observations from a re-analysis of the deposited data

How the results depend on the processing

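Every one of the 83 called gene differences kept its direction under the 11 alternatives tried (other features, array centring, quantile normalization, another variance model, parity or title number as a term, means of neighbouring title numbers, and subsets of the arrays). Only array centring, quantile normalization and subsets of the arrays could change a direction. In this balanced design the other alternatives return the same log2 difference and alter its p-value alone. Of the 83 calls, 52 were lost with the odd-numbered arrays only, 37 with the even-numbered arrays only, 32 with the means of neighbouring title numbers (4 values per line, added after the data had been seen), 14 with each array centred on its median, 7 without the arrays numbered 17 and 18, and 4 over all probe sets. Against Ba/F3-gp130, the higher genes in the natural receptor line numbered 6 with odd arrays only. Those past 1.5-fold numbered 2 after quantile normalization, 4 without arrays 17 and 18, 0 with odd and 4 with even arrays, and the lower genes numbered 1, 2 and 1 without 17 and 18, with odd and with even arrays. In the paired SyCyR line the higher genes numbered 4 after centring and 0 with odd or even arrays only, and with the title number as a replicate block, 16 were higher and 1 lower. In the IL-23R SyCyR line, 3 were lower with even arrays. Between the IL-23R SyCyR line and the natural receptor line, 2 genes were higher after centring, after quantile normalization or with the block, 11 and 13 were lower with odd and with even arrays, and 5 passed 1.5-fold without arrays 17 and 18. Between the SyCyR lines, 22 were lower with the block, 4 and 6 with odd and with even arrays, and 2 passed 1.5-fold without arrays 17 and 18. Between the paired SyCyR line and the natural receptor line, 7 were higher with the block, 2 with odd or with even arrays, and 0 were lower with odd arrays. In the mean of the receptor lines, 1 gene, Scd2, differed between odd and even arrays after centring. With neighbouring numbers as pairs, 6 genes differed there and 2 in the natural receptor line. With the means of neighbouring numbers, 2 genes were lower in the natural receptor line, 3 higher in the paired SyCyR line and 4 lower in the IL-23R SyCyR line than in Ba/F3-gp130, 9 were lower between the SyCyR lines and 3 lower in the paired SyCyR than the natural receptor line. Between title numbers, 10 genes differed without Ba/F3-gp130. The odd-only, even-only and neighbour-mean settings hold 4 values per line, and the other causes were not tested. The arrays numbered 17 and 18 were singled out after their values had been seen, so counts without them are a description. The block changed no other count by over 1.5 times. Leaving out each title number in turn gave 14 to 18 higher genes (0 to 3 past 1.5-fold) and 3 to 4 lower for the natural receptor line against Ba/F3-gp130, 4 to 10 higher for the paired SyCyR line and 6 to 7 lower for the IL-23R SyCyR line. It gave 17 to 22 lower (1 to 4 past 1.5-fold) and 1 to 2 higher for the IL-23R SyCyR line against the natural receptor line, 12 to 16 lower between the SyCyR lines, 3 to 5 higher and 6 to 7 lower for the paired SyCyR line against the natural receptor line, and 0 to 2 genes in the odd and even comparison of the receptor lines.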
